A study of Mus musculus with 150 samples.

Results

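Nr4a1, Nr4a2 and Nr4a3 encode the NR4A family of orphan nuclear receptors, known as Nur77, Nurr1 and Nor-1. All probe sets annotated to these genes were taken, and each gene was followed through the probe set with the highest mean over all arrays. The 3 genes have 9 probe sets and stand among 17097 genes that the annotation of the array names. All 3 passed the filter on low values, as did 15695 of the 17097 genes.

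NR4A receptors have no known natural ligand, and their activity follows mainly from how much of the protein is made. They are immediate-early genes: hormones acting through cyclic AMP, calcium, growth factors, mechanical stress and inflammatory signals raise their transcription within minutes, largely through CREB and MEF2 factors, and the messages decay quickly. The proteins bind, alone or in pairs, to DNA elements related to the NBRE and can form dimers with the retinoid X receptor. In mouse, Nr4a1 is needed for the patrolling (Ly6C-low) monocytes that crawl along blood vessels, including those of the lung, and Nr4a2 is needed for midbrain dopamine neurons.

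The data were log2 intensities from 150 Affymetrix HT MG-430 PM arrays, each of the whole lung of 1 adult male mouse from Taconic. Of these, 79 mice had inhaled 120 ppm styrene and 71 had inhaled air, for 6 hours a day on 5 days a week, and they were killed on the morning after the last exposure at 26, 52, 78 or 104 weeks. The strains were wild-type C57BL/6 (WT, 31 arrays), C57BL/6 without the P450 gene Cyp2f2 (KO, CYP2F2(-/-), 39 arrays), the same knockout carrying a transgene labelled 2F1, SA13, 2B6 (TG, 38 arrays) and outbred CD-1 (42 arrays). Air-exposed KO and TG mice carry the deletion too, so no difference between styrene and air within these strains contains it, and the promoters driving the transgene are not stated in the labels. There were 31 groups of 2 to 10 mice, with no air-exposed WT group at 26 weeks and only 2 air-exposed WT mice at 78 weeks. Cyp2f2 itself lay between 11.69 and 12.55 (median 12.14) in the 77 KO and TG arrays and between 12.07 and 13.54 (median 13.32) in the 73 WT and CD-1 arrays. The labels do not state whether its probes lie in the deleted part. The lung markers Sftpc of alveolar type 2 cells (13.65 to 13.93), Ager of alveolar type 1 cells (12.61 to 13.67) and Scgb1a1 of club cells (13.59 or above) were high in every array, while Tnni3, of heart muscle, ranged over the arrays between 3.37 and 9.80. Array plates matter for some comparisons and were inferred from well labels together with week, strain and exposure. Up to 78 weeks all arrays were taken to be on plate 1 except 14 on plate 2. At 104 weeks air arrays were assigned to plate 3 and styrene arrays to plate 4 by their exposure, not by their wells. Among the latter, 4 styrene arrays (2 KO and 2 TG) share wells with each other, which leaves plate 3 or 4 unsettled. Under this assignment plate and styrene cannot be told apart at 104 weeks in WT and CD-1, and not with certainty in KO and TG.

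The promoters of the 3 genes are shown because cyclic AMP signalling reaches these genes through CREB sites. Each sequence is the 250 bases before the RefSeq gene start in GRCm38.p6, written along the strand of the gene, with the 5-base core of the cyclic AMP response element (TGACG, or CGTCA on the other strand) in capitals. Nr4a1 lies at chr15:101266596-101266845 on the plus strand, Nr4a2 at chr2:57124004-57124253 on the minus strand, and Nr4a3 at chr4:48045055-48045304 on the plus strand.
Nr4a1: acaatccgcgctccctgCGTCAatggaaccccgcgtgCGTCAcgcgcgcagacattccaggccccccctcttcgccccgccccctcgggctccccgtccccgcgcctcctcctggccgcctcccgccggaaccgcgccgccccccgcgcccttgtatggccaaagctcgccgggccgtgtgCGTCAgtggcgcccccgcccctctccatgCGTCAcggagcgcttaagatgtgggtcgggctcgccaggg
Nr4a2: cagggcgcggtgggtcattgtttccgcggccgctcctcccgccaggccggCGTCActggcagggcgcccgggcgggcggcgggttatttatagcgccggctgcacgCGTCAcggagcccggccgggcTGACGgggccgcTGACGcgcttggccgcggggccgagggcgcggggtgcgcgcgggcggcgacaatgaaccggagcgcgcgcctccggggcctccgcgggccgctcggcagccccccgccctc
Nr4a3: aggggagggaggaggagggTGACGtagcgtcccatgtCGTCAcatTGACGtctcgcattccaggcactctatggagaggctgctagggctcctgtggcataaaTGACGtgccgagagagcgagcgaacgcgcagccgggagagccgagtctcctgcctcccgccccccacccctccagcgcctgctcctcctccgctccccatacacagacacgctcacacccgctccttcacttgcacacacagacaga
Each promoter held 4 copies of the core. They began 233, 213, 69 and 40 bases before the start in Nr4a1, 200, 144, 123 and 111 bases before it in Nr4a2, and 231, 213, 205 and 147 bases before it in Nr4a3. Of 32851 mouse promoter windows of this length, 17.8% held at least 1 core and 0.137%, or 45 windows, held at least 4. The full element TGACGTCA was in none of the 3 windows and in 1.55% of all windows. The NBRE (AAAGGTCA) and a short heat shock element (GAANNTTC) were also in none of the 3, against 1.34% and 6.69% of all windows. These matches describe letters, counted on both strands, and a missing match concerns only this window. The core and the full element overlap, because the full element contains the core on each strand.

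Within the family, Nr4a1 was read by the probe set 1416505_PM_at alone, with a mean of 8.01 and values between 6.87 and 10.22 over the 150 arrays. Nr4a2 was read by 1455034_PM_at (mean 5.61, between 4.26 and 7.14), and Nr4a3 by 1438796_PM_at (mean 4.65, between 2.74 and 8.04). The filter level, the 30th percentile of each array, lay between 2.99 and 3.19, and Nr4a3 was above it in 142 of 150 arrays. The 4 other probe sets of Nr4a2 had means of 4.75, 4.41, 3.44 and 2.91. Their r with the brightest Nr4a2 probe set within groups was 0.277, 0.526, 0.0825 and 0.116. The 2 other probe sets of Nr4a3 had means of 3.14 and 2.73. These dimmer Nr4a3 probe sets did not vary with the brightest one from mouse to mouse within groups (r = 0.0084 and -0.0164 over 150 arrays), so every Nr4a3 result below rests on a single probe set.

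All 3 genes varied more between mice of the same group than most genes. The SD within groups was 0.544 for Nr4a1, 0.366 for Nr4a2 and 0.484 for Nr4a3 on the log2 scale, above 97.5%, 88.0% and 95.9% of genes, whose median was 0.213. Between groups Nr4a3 stood apart from the others: the SD of its 31 group means was 1.20, the 21st highest of 15695 genes, against 0.525 for Nr4a1, 0.454 for Nr4a2 and a median of 0.191 over genes. Group means of Nr4a1 lay between 7.28 (WT, styrene, 26 weeks) and 9.25 (TG, styrene, 78 weeks), those of Nr4a2 between 4.73 (CD-1, styrene, 104 weeks) and 6.58 (TG, air, 26 weeks), and those of Nr4a3 between 3.26 (CD-1, styrene, 78 weeks) and 6.97 (TG, air, 26 weeks). The highest Nr4a1 value was in a TG mouse after 78 weeks of air (10.22), the highest Nr4a2 value in a WT mouse after 52 weeks of air (7.14) and the highest Nr4a3 value in a CD-1 mouse after 52 weeks of air (8.04).

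**Figure D1:**
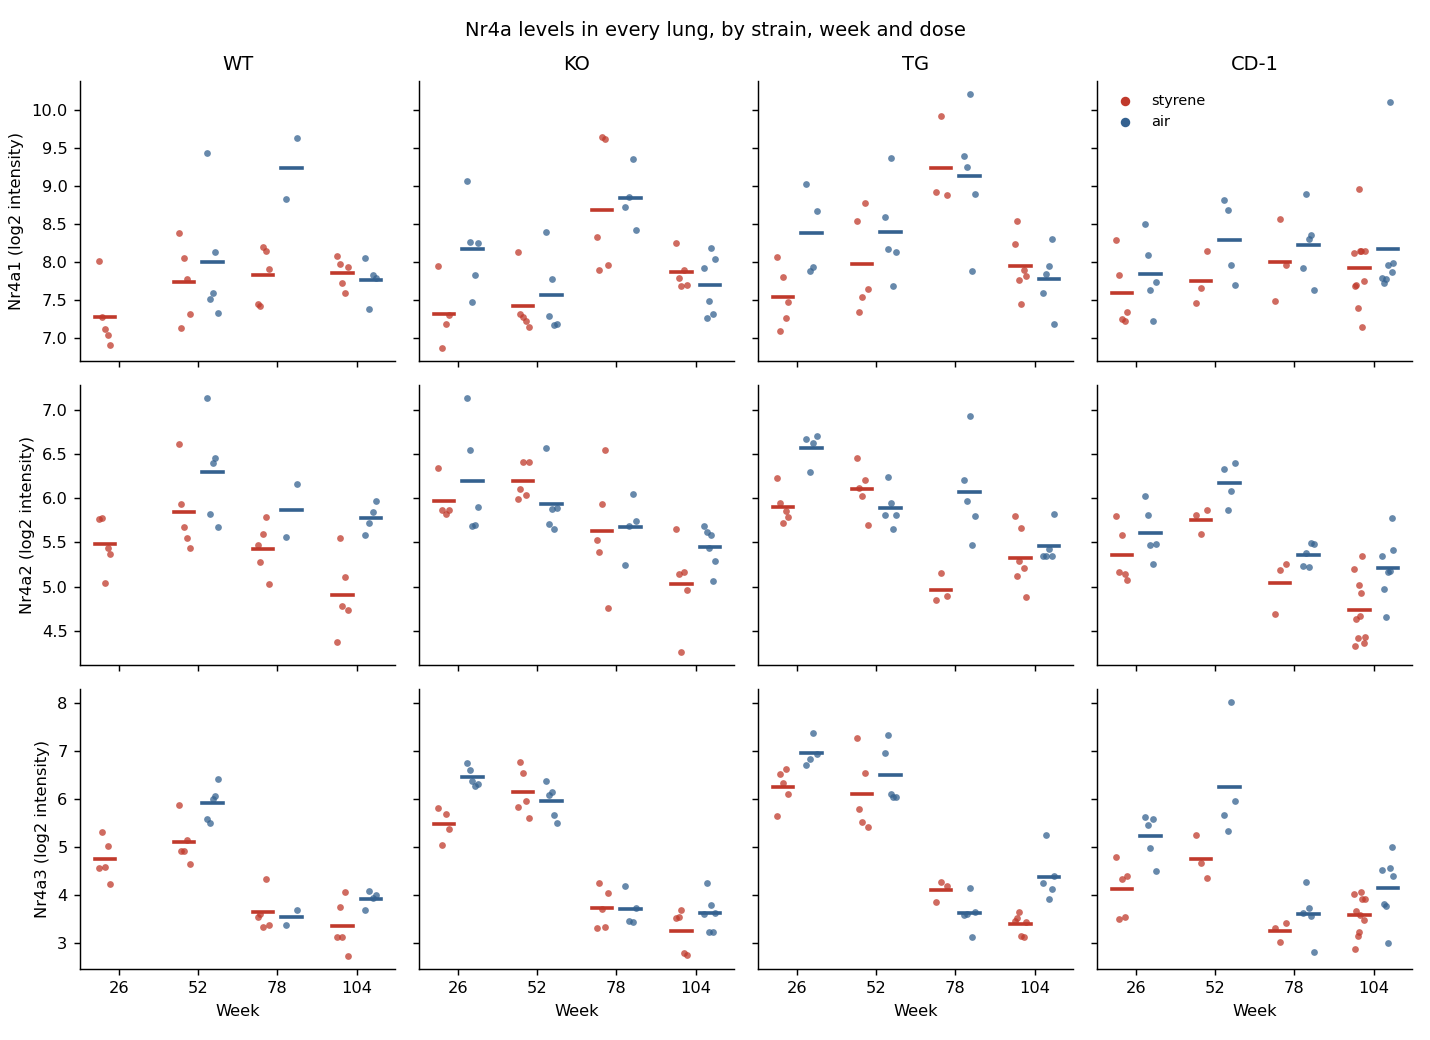
Log2 intensity of Nr4a1, Nr4a2 and Nr4a3 (rows) in each of 150 mouse lungs by strain (columns) and weeks of exposure, with styrene to the left of air; points are mice and bars are group means. Nr4a3 sat between 3.52 and 8.04 at 26 or 52 weeks and between 2.74 and 5.26 at 78 or 104 weeks.

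Nr4a3 was the member with the clearest pattern, and the pattern followed the week. In lungs of air-exposed mice its median was 6.35 at 26 weeks, 6.06 at 52 weeks, 3.62 at 78 weeks and 3.97 at 104 weeks (14, 19, 16 and 22 mice). In styrene-exposed mice the medians were 5.05, 5.57, 3.57 and 3.51 (19, 18, 16 and 26 mice). Over both exposures, the 80 arrays of 78 or 104 weeks lay between 2.74 and 5.26 with a median of 3.64, and the 70 arrays of 26 or 52 weeks lay between 3.52 and 8.04 with a median of 5.74. Of the earlier arrays, 51 were above every later one, and of the later arrays, 28 were below every earlier one. Many of the later values lay near the filter level, so the folds below may understate the change. In these whole-lung RNA samples, fewer cells that express a gene and less RNA per cell cannot be told apart.

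The step lay between 52 and 78 weeks in air-exposed mice of all 4 strains, which were on the same array plate apart from 1 CD-1 mouse. In WT lungs Nr4a3 was 3.39 and 3.70 at 78 weeks, against 5.58, 5.52, 6.00, 6.06 and 6.42 at 52 weeks. Every 78-week value was below every 52-week value. The change was -2.37 ± 0.396 (log2, SE), a 5.17-fold fall (limma, adjusted p = 6.71e-05, in a comparison that called 0.644% of genes). With the 78-week mouse at 3.39 left out, the change was -2.22 (adjusted p = 0.0631).

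KO lungs gave 4.19, 3.47, 3.44 and 3.74 at 78 weeks, against 6.39, 6.09, 6.16, 5.67 and 5.51 at 52 weeks. Again the groups did not overlap, and Nr4a3 was 4.76-fold lower at 78 weeks (log2 change -2.25 ± 0.317, limma adjusted p = 7.21e-07, 12.7% of genes called). TG lungs gave 3.58, 3.60, 4.15, 3.14 and 3.65 at 78 weeks, against 6.97, 7.34, 6.11, 6.05 and 6.06 at 52 weeks. This was the largest of the 4 falls, 7.36-fold, with no overlap (log2 change -2.88 ± 0.299, limma adjusted p = 1.78e-12, 23% of genes called).

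CD-1 lungs, from an outbred stock, gave 3.64, 4.29, 3.74, 3.56 and 2.83 at 78 weeks, against 5.67, 5.33, 8.04 and 5.96 at 52 weeks. The fall was 5.65-fold (log2 change -2.50 ± 0.326, limma adjusted p = 7.81e-08, 2.02% of genes called). The 52-week mouse at 8.04 was the highest of all arrays and the one on plate 2, and without it the change was -2.04 (adjusted p = 6.76e-05). Among the 15695 genes, Nr4a3 had the third lowest log2 change between 52 and 78 weeks in WT, KO and CD-1 lungs and the second lowest in TG lungs.

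Set against 26 weeks, the 78-week level was lower too. KO lungs of 78 weeks were 6.77-fold below those of 26 weeks, which had Nr4a3 at 6.76, 6.61, 6.37, 6.28 and 6.32 (log2 change -2.76, limma adjusted p = 2.94e-10, 20.5% of genes called). TG lungs of 78 weeks were 10.2-fold below those of 26 weeks, at 6.72, 6.83, 7.39 and 6.95 (-3.34, adjusted p = 1.1e-14, 18.3% called). CD-1 lungs of 78 weeks were 3.08-fold below those of 26 weeks, at 5.63, 5.47, 4.98, 5.60 and 4.51 (-1.62, adjusted p = 2.62e-05, 25.3% called). None of these pairs of groups overlapped.

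No step was called on either side of it in air-exposed mice. From 26 to 52 weeks the log2 change of Nr4a3 was -0.51 in KO (adjusted p = 0.999, 0.00637% of genes called), -0.47 in TG (adjusted p = 0.794, 0.0319% called) and 0.87 in CD-1 (adjusted p = 0.148, 1.26% called). Between 78 and 104 weeks, which were on different plates, the changes were between -0.08 in KO and 0.77 in TG (adjusted p = 0.0999). In all, 11 of 42 comparisons of weeks in air called a member, 1 of them higher and 10 lower, where 9.4% of all tests over genes were called.

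The dimmer Nr4a3 probe sets moved less. In air-exposed mice the means at 26, 52, 78 and 104 weeks were 6.17, 6.15, 3.63 and 4.02 for the brightest, 3.31, 3.15, 2.94 and 3.09 for the second, and 2.76, 2.74, 2.64 and 2.72 for the third. Both dimmer probe sets lay close to or below the filter level at all weeks. All 3 had their lowest mean at 78 weeks. With the mean of the 3 probe sets in place of the brightest, the change in air from 52 to 78 weeks was -0.89 in WT and -0.86 in CD-1.

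Other genes fell or rose over the same step, and 2 lists fell beside Nr4a3. Of 7 heat shock genes, 5 in WT and 6 in each of KO, TG and CD-1 were lower at 78 than at 52 weeks in air. The medians of the heat shock list were -1.27, -1.01, -1.12 and -1.45 in that order of strains, against medians of -0.03, -0.08, -0.06 and -0.02 over all genes. Hspa1b, the inducible HSP70 chaperone, changed by -4.09 in WT, -3.60 in KO, -3.44 in TG and -3.93 in CD-1. Hsph1, a nucleotide exchange factor for HSP70, changed by -2.44, -2.11, -1.87 and -2.35. The summed level of the heat shock list lay at 12.98 to 13.29 at 78 weeks and 13.92 to 14.75 at 52 weeks in WT lungs, and it did not overlap between these weeks in any strain.

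Of 9 glucocorticoid response genes, 2 in WT, 8 in KO, 8 in TG and 2 in CD-1 were lower at 78 weeks, with medians of -1.20, -1.34, -1.31 and -0.76. Tsc22d3, which encodes the glucocorticoid-induced leucine zipper protein, was called in all 4 strains at -1.20, -1.34, -1.31 and -0.94. Fkbp5, an HSP90 co-chaperone of steroid receptors, was called in KO (-1.76) and TG (-1.33) and was at -1.34 in WT (adjusted p = 0.13) and -0.59 in CD-1 (adjusted p = 0.473). The summed level of the glucocorticoid response list was 12.20 to 12.62 at 78 weeks and 13.10 to 13.43 at 52 weeks in KO lungs. Their part in the Nr4a3 change was not tested.

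Of 25 immediate-early genes measured, 24 were tested, and they moved in both directions. None was called in WT, 4 were higher and 1 lower in KO, 4 higher and 3 lower in TG, and 2 lower in CD-1, with medians of the immediate-early genes of 0.05, 0.04, -0.01 and -0.17. Egr1, a zinc finger transcription factor, was higher in KO (1.64, adjusted p = 0.00179) and TG (1.29, adjusted p = 0.00465), and was at 1.71 in WT (adjusted p = 0.0529) and 0.46 in CD-1 (adjusted p = 0.619). Ccn1, a secreted matrix protein, was higher in KO (0.77) and TG (0.92). Maff, a small MAF transcription factor, was lower in KO (-0.92), TG (-1.14) and CD-1 (-0.75). Fosl2, an AP-1 subunit, was lower in TG (-0.61) and CD-1 (-0.70).

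**Figure D2:**
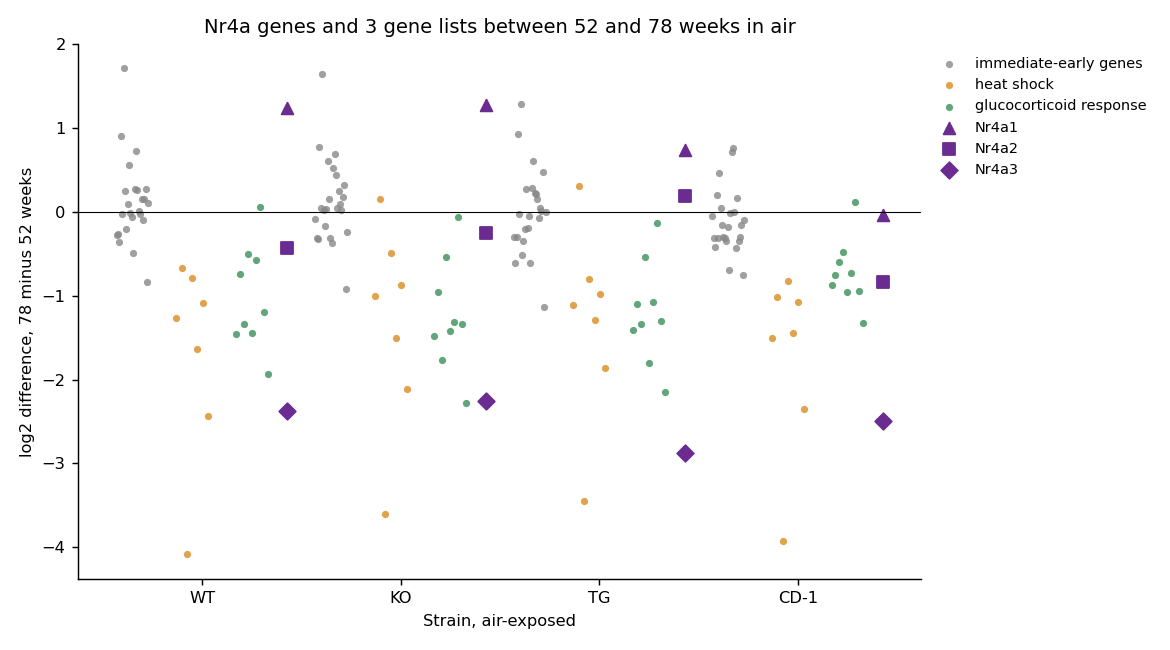
Log2 difference between 78 and 52 weeks (y) in air-exposed mice of each strain (x) for the members (triangle Nr4a1, square Nr4a2, diamond Nr4a3), immediate-early genes (grey), heat shock genes (orange) and glucocorticoid response genes (green). Nr4a3 lay between -2.25 and -2.88, while the median of the immediate-early genes lay between -0.17 and 0.05.

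The regulators and partners of the family are given beside the share of all genes called over the step, 0.644% in WT, 12.7% in KO, 23% in TG and 2.02% in CD-1. Of 16 upstream regulators of Nr4a transcription, none was called in WT, 2 were higher in KO, 5 higher and 1 lower in TG, and 1 lower in CD-1. Mef2a and Mef2c, calcium-responsive MADS-box factors, were higher in KO (0.88 and 0.86) and TG (1.20 and 1.06). Creb1 (0.89), Atf1 (0.46) and Atf2 (0.86), bZIP factors of the CREB and ATF families, were higher in TG. Sik1, a kinase that restrains CREB coactivators, was lower in TG (-0.64) and CD-1 (-1.12). Of 7 partners and coregulators of NR4A proteins, Bcl2, an apoptosis inhibitor that binds Nur77 at mitochondria, and Ncoa2, a nuclear receptor coactivator, were higher in KO (0.96 and 0.69) and TG (1.11 and 0.77).

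Of 17 genes linked to NR4A binding in other tissues, none was called in WT, 1 was higher and 1 lower in KO, 2 higher and 3 lower in TG, and 1 lower in CD-1. Plat, tissue plasminogen activator, was lower in KO (-1.05) and TG (-0.86). Ikzf2, a lymphocyte zinc finger factor, was higher in KO (1.02) and TG (1.12). Fbp1, a gluconeogenic phosphatase, and Th, tyrosine hydroxylase of dopamine synthesis, were lower in TG (-1.45 and -0.37). Fbp2, the muscle form of the phosphatase, was lower in CD-1 (-1.26).

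Markers of other cells moved over the same weeks. B cell genes were higher in 2 of 5 in KO and 3 of 5 in TG and in none in WT and CD-1, with medians of the B cell list of 1.06 in WT, 1.29 in KO, 1.29 in TG and 0.89 in CD-1. Ms4a1, which encodes CD20, was higher by 2.29 in KO and 2.12 in TG. Of 5 smooth muscle genes, 3 were lower in KO and none was called in the other strains, with list medians of -0.67 in WT, -0.59 in KO, -0.26 in TG and 0.03 in CD-1. The summed smooth muscle level did not overlap between 78 and 52 weeks in WT (10.68 to 10.84 and 11.30 to 11.60) or in KO (10.43 to 10.82 and 10.99 to 11.46). No heart muscle gene of 10 was called in any strain. Patrolling (Ly6C-low) monocyte genes were higher in 1 of 7 in KO (Treml4, 1.14) and 4 of 7 in TG (including Cx3cr1, the fractalkine receptor, 0.73), with medians of 0.62 in WT, 0.50 in KO, 0.71 in TG and 0.38 in CD-1. Their part in the changes of the members was not tested.

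Styrene-exposed mice showed the same step in the 3 C57BL/6 lines, with values that depend on how plate 2 is handled, because KO and TG mice of 78 weeks and 4 of 5 WT mice were on plate 2. Nr4a3 in WT mice given styrene was 3.54, 3.60, 3.34, 4.35 and 3.39 at 78 weeks, against 5.89, 4.93, 4.93, 5.15 and 4.65 at 52 weeks. In KO mice it was 3.31, 4.25, 3.72, 3.34 and 4.04, against 5.84, 6.77, 6.55, 5.97 and 5.61. In TG mice it was 3.85, 4.28 and 4.19, against 7.27, 5.79, 5.52, 6.56 and 5.42. All 78-week values were below all 52-week values in each line.

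With the plate term, Nr4a3 in styrene-exposed mice was 3.74-fold lower in WT (log2 change -1.90, limma adjusted p = 0.000459, 16.5% of genes called), 7.8-fold lower in KO (-2.96, adjusted p = 9.74e-07, 3.26% called) and 5.87-fold lower in TG (-2.55, adjusted p = 0.000516, 0.847% called) at 78 than at 52 weeks. Without the plate term the changes were -1.46, -2.42 and -2.01 (adjusted p = 0.000645, 5.68e-09 and 1.69e-05). The plate term for Nr4a3 was 0.55 (adjusted p = 0.325), and without the CD-1 air mouse of 8.04 on plate 2 the changes were -1.21 (adjusted p = 0.0218), -2.10 (0.00481) and -1.69 (0.17). CD-1 mice given styrene, at 3.32, 3.02 and 3.42 at 78 weeks against 5.25, 4.67 and 4.37 at 52 weeks, changed by -1.51 (adjusted p = 0.0633, 0.185% called).

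Against 26 weeks, Nr4a3 at 78 weeks of styrene was 2.91-fold lower in WT (log2 change -1.54, limma adjusted p = 0.00152, 30.7% of genes called), 4.91-fold lower in KO (adjusted p = 0.00122, 3.05% called) and 6.46-fold lower in TG (-2.69, adjusted p = 0.00013, 4.02% called). The WT groups overlapped, since a 78-week mouse at 4.35 was above a 26-week mouse at 4.24. Without the CD-1 air mouse on plate 2, these changes were -0.85 (adjusted p = 0.0848), -1.43 (0.0537) and -1.83 (0.0276). Over all 48 comparisons of weeks with styrene, 6 called a member, all of them Nr4a3 and all lower, where 12.3% of all tests were called. Without the plate term 16 were called, among them higher Nr4a1 at 78 than at 52 weeks in KO (1.27, adjusted p = 0.00939) and TG (1.27, adjusted p = 0.00933) and lower Nr4a2 in TG (-1.14, adjusted p = 0.000768). At 78 against 52 weeks of styrene, heat shock genes were lower in 4, 4, 0 and 4 of 7 in WT, KO, TG and CD-1, and glucocorticoid response genes in 8, 8, 5 and 1 of 9.

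Nr4a1 was higher at 78 than at 52 weeks of air in KO lungs, the one strain where this step was called. Its median in air-exposed mice was 8.02 at 26 weeks, 7.96 at 52 weeks, 8.85 at 78 weeks and 7.84 at 104 weeks. In KO lungs it was 8.72, 8.86, 9.37 and 8.43 at 78 weeks, against 8.40, 7.29, 7.78, 7.18 and 7.19 at 52 weeks. Every 78-week mouse was above every 52-week mouse, and Nr4a1 was 2.42-fold higher (log2 change 1.28 ± 0.361, limma adjusted p = 0.0111, 12.7% of genes called).

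At 104 weeks KO lungs had 7.93, 7.27, 7.49, 8.20, 7.32 and 8.04, all below the 78-week mice. Nr4a1 was thus 2.2-fold lower at 104 than at 78 weeks (log2 change -1.14, limma adjusted p = 0.0237, 8.67% of genes called). Of the calls on these KO mice, the rise did not hold without the third 78-week mouse (1.10, adjusted p = 0.063), and the fall did not hold without the second (adjusted p = 0.0651) or the third (adjusted p = 0.119).

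In TG lungs Nr4a1 was 7.60, 7.85, 7.95, 8.31 and 7.19 at 104 weeks, against 9.41, 9.25, 10.22, 7.89 and 8.90 at 78 weeks. These groups overlapped through the 78-week mouse at 7.89, and Nr4a1 was 2.56-fold lower at 104 weeks (log2 change -1.35, limma adjusted p = 0.0065, 7.24% of genes called). Without the 78-week mouse at 10.22 the change was -1.08 (adjusted p = 0.0568). The change from 52 to 78 weeks in TG was 0.74 (adjusted p = 0.103).

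WT lungs had Nr4a1 at 8.83 and 9.64 at 78 weeks, above their means of 8.00 ± 0.86 (SD, n = 5) at 52 weeks and 7.77 ± 0.28 (n = 4) at 104 weeks. The changes, 1.23 from 52 to 78 weeks (limma adjusted p = 0.169) and -1.47 from 78 to 104 weeks (adjusted p = 0.102, 1.13% of genes called), were not called. CD-1 lungs had Nr4a1 at 8.29 ± 0.54 (n = 4), 8.22 ± 0.48 (n = 5) and 8.18 ± 0.86 (n = 7) at 52, 78 and 104 weeks, and the log2 change from 52 to 78 weeks was -0.04 (adjusted p = 0.977). Whether the strains differ in this change was not tested.

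The immediate-early genes that moved with Nr4a1 at 104 against 78 weeks of air were mostly lower. In KO lungs 6 of 24 were lower and 1 higher: Egr1 (-2.07), the AP-1 subunits Fos (-1.35) and Junb (-0.82), Ier3 (-1.22), Ccn1 (-1.11) and Ier2 (-0.62) were lower, and Maff (0.58) was higher. In TG lungs Egr1 (-1.72), Ier3 (-1.01), Fos (-0.98) and Ccn1 (-0.96) were lower and Maff (0.81) was higher. WT lungs had 4 immediate-early genes lower, and CD-1 lungs 3 lower and 1 higher (10.7% of genes called). The 78-week and 104-week arrays were on different plates, so week and plate cannot be told apart in this comparison.

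Nr4a2 had 1 call in 14 comparisons over the weeks of air, against 7 for Nr4a3 and 3 for Nr4a1. It had none in 16 over the weeks of styrene. Of all tests over genes, 9.4% were called in air and 12.3% with styrene. Its median in air-exposed mice was 5.97, 5.89, 5.63 and 5.42 at 26, 52, 78 and 104 weeks, and in styrene-exposed mice 5.78, 6.01, 5.27 and 4.99. In CD-1 lungs it was 5.23, 5.38, 5.22, 5.49 and 5.48 at 78 weeks, against 6.33, 5.87, 6.08 and 6.40 at 52 weeks of air. The groups did not overlap and Nr4a2 was 1.79-fold lower (log2 change -0.84, limma adjusted p = 0.0496, 2.02% of genes called). That call held in 1 of 9 repeats that left out a mouse of these groups, the one without the 52-week mouse at 5.87 (-0.97, adjusted p = 0.0374). The same step was -0.44 in WT, -0.26 in KO and 0.18 in TG, none of them called.

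The question of styrene against air was asked in 15 pairs of groups, 45 comparisons of a member. The log2 difference was negative in 12 of 15 pairs for Nr4a1, in 12 for Nr4a2 and in 14 for Nr4a3. These signs are of differences fitted with the plate 2 term, and at 78 weeks some group means went the other way. Nr4a3 means were higher with styrene in WT (3.65 against 3.55), KO (3.73 against 3.71) and TG (4.11 against 3.63). The Nr4a1 mean was higher in TG (9.25 against 9.13). The Nr4a2 mean was lower in KO (5.63 against 5.68), where the fitted difference was positive. Signs were not counted over all genes. In all, 4 comparisons passed the test, all with lower values in styrene-exposed mice, where 10.2% of all tests were called. Of the 4, 3 were at 104 weeks.

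In CD-1 lungs at 26 weeks Nr4a3 was 4.80, 3.52, 4.35, 3.56 and 4.39 with styrene, against 5.63, 5.47, 4.98, 5.60 and 4.51 with air. All 5 styrene mice were below the air mean, though the groups overlapped through the air mouse at 4.51. Nr4a3 was 2.33-fold lower (log2 difference -1.22 ± 0.305, limma adjusted p = 0.0255, 0.65% of genes called). The call did not hold in 6 of 11 repeats that left out an array, with differences between -0.96 and -1.44: without the second or the fourth styrene mouse, the 3 highest air mice each in turn, or the air mouse of 52 weeks on plate 2 (-1.05, adjusted p = 0.0653).

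Beside it, the clock list moved in CD-1 lungs at 26 weeks, with 7 of 14 genes higher and 2 lower in styrene mice, a list median of 0.97 and a median over all genes of 5e-04. Dbp, a clock output factor, was at 8.93 to 9.62 with styrene and 3.74 to 6.94 with air (log2 difference 4.21, limma adjusted p = 1.1e-05). Arntl, which encodes the clock activator BMAL1, was at 3.56 to 4.64 with styrene and 6.76 to 7.47 with air (-2.98). The summed clock level was 11.95 to 12.42 with styrene and 10.78 to 11.17 with air. Genes of the list moved in both directions, so this sum weighs the brighter ones and is no measure of the clock as a whole. None of 24 immediate-early genes and none of 7 heat shock genes was called there. The summed clock level was higher without overlap in KO lungs at 26 weeks too (11.60 to 12.18 with styrene, 10.97 to 11.46 with air). The same held in WT lungs at 104 weeks (11.74 to 12.26 and 11.21 to 11.53), and in the other pairs the groups overlapped. The part of the clock genes in the differences of the members was not tested.

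At 52 weeks CD-1 lungs had Nr4a3 at 5.25, 4.67 and 4.37 with styrene, against 5.67, 5.33, 8.04 and 5.96 with air. The groups did not overlap, but the difference of -1.35 was not called (limma adjusted p = 0.196, 0.0701% of genes called), and no clock gene was called. Averaged over 26, 52 and 78 weeks, Nr4a3 in CD-1 was 1.96-fold lower with styrene (log2 difference -0.97 ± 0.194, adjusted p = 0.00105, 0.835% of genes called), or -0.76 without the air mouse at 8.04 (adjusted p = 0.0243). In a fit of CD-1 arrays alone it was -0.97 with an adjusted p of 0.0845. This was the only call among 12 averaged comparisons, against 0.218% of all tests. Without the plate term Nr4a2 in TG was called too (-0.52, adjusted p = 0.0098). The averages of Nr4a3 in the other strains were -0.57 in WT (0.0382% of genes called), -0.44 in KO (0% called, 946 genes below 0.05 unadjusted) and -0.39 in TG (0% called, 2104 below 0.05 unadjusted). These averages in WT, KO and TG are made lower by the plate 2 term, which was 0.55 for Nr4a3. It enters through 78 weeks, where the group means of Nr4a3 were higher with styrene in each of these strains.

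At 104 weeks, where styrene and plate cannot be told apart, Nr4a2 in WT lungs was 4.38, 5.55, 4.78, 5.10 and 4.74 with styrene, against 5.59, 5.72, 5.84 and 5.97 with air. The groups did not overlap, and Nr4a2 was 1.83-fold lower (log2 difference -0.87 ± 0.243, limma adjusted p = 0.00194), in a comparison that called 48% of genes. In CD-1 lungs at this week Nr4a2 (-0.48, adjusted p = 0.0143) and Nr4a3 (-0.56, adjusted p = 0.0304) were lower with styrene, where 63.6% of genes were called. These Nr4a2 differences are of its brightest probe set. Over all strains at 104 weeks, its other probe sets averaged 4.75, 4.06, 3.62 and 2.97 with styrene. With air they averaged 4.64, 4.27, 3.46 and 2.89, so only the one at 4.06 was lower with styrene. Of 12 other settings, the WT call was lost in 4, the Nr4a2 call of CD-1 in 5 and the Nr4a3 call of CD-1 in 6. The difference then lay between -0.16 (mean of probe sets) and -0.83 (a plate 4 term) for the WT call. Without tumour-labelled mice the CD-1 differences were -0.43 for Nr4a2 (adjusted p = 0.113) and -0.22 for Nr4a3 (adjusted p = 0.552). Among immediate-early genes 5 were higher and 2 lower in WT and 6 higher and 1 lower in CD-1.

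In WT lungs at 52 weeks Nr4a3 was 5.89, 4.93, 4.93, 5.15 and 4.65 with styrene, against 5.58, 5.52, 6.00, 6.06 and 6.42 with air. The groups overlapped through the styrene mouse at 5.89, and the log2 difference of -0.81 was not called (limma adjusted p = 0.24, 0.401% of genes called).

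Some differences with no overlap between the groups did not pass the test. Over the 15 pairs, styrene and air mice did not overlap in 1 for Nr4a1, 4 for Nr4a2 and 4 for Nr4a3. How often this holds over all genes was not counted, so it is no evidence beside the test. In TG lungs at 26 weeks Nr4a3 was 5.65, 6.53, 6.33, 6.63 and 6.11 with styrene, against 6.72, 6.83, 7.39 and 6.95 with air, a log2 difference of -0.72 in a comparison where limma called 0% of genes and 366 had an unadjusted p below 0.05. In KO lungs at 26 weeks it was 5.81, 5.05, 5.69 and 5.37 with styrene, against 6.76, 6.61, 6.37, 6.28 and 6.32 with air (-0.99, limma adjusted p = 0.999, 0% of genes called and 363 with an unadjusted p below 0.05). In TG lungs at 104 weeks, where the plate of 2 styrene mice is unsettled, it was 3.14 to 3.65 with styrene and 3.92 to 5.26 with air (-0.996, adjusted p = 0.4, 0% called and 980 below 0.05 unadjusted). By size alone these were the 23rd, 6th and 19th lowest differences of 15695 genes. Nr4a3 varied more within groups than 95.9% of genes, and such genes reach large differences more easily. The ranks are therefore given as a description and are no evidence of a styrene difference.

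Nr4a2 in TG lungs at 78 weeks was 4.84, 5.15 and 4.90 with styrene, against 6.21, 5.97, 6.93, 5.48 and 5.80 with air (log2 difference -0.98, limma adjusted p = 0.145, 0.191% of genes called). All 3 styrene mice were on plate 2, and without the plate term the difference was called (-1.11, adjusted p = 0.000352). Nr4a1 in WT lungs at 78 weeks was 7.46, 7.43, 8.20, 8.15 and 7.91 with styrene, against 8.83 and 9.64 with air (-1.50, adjusted p = 0.999, 0.00637% called). The KO and TG mice given styrene for 78 weeks had Nr4a1 at 8.34, 7.90, 9.65, 9.62 and 7.97 in KO and 8.93, 9.92 and 8.89 in TG. Of 9 comparisons of the styrene effect between strains, none was called, and 1 had an unadjusted p below 0.05, Nr4a2 in WT minus KO (-0.53, p = 0.0102 and adjusted p = 0.682 in limma, 0.0892% of genes called). Of all tests in that family, 0.0531% were called.

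**Figure D3:**
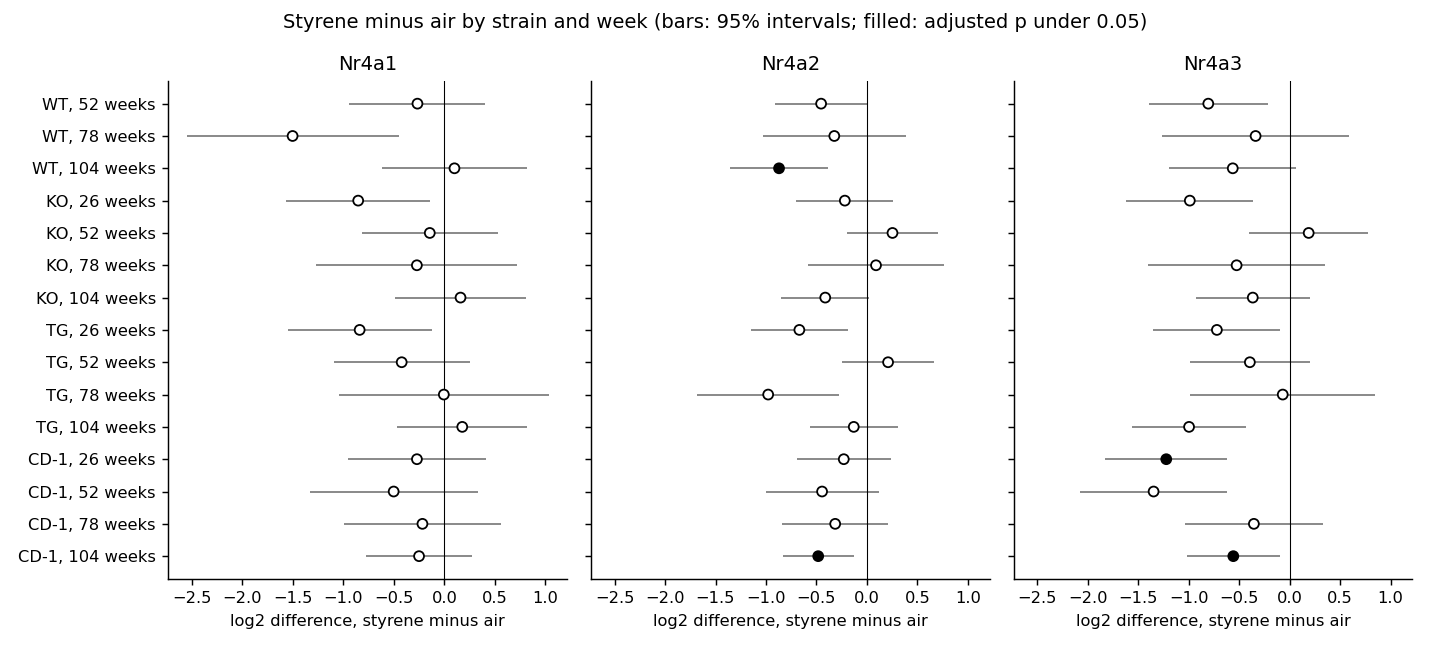
Log2 difference between styrene and air (x) for each strain and week (rows) and each gene (panels), with 95% intervals from the limma fit; filled points have an adjusted p under 0.05. The filled points are Nr4a2 in WT and CD-1 at 104 weeks and Nr4a3 in CD-1 at 26 and 104 weeks, all below 0.

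Between strains of air-exposed mice, the calls concerned CD-1 lungs, which were lower than KO or TG lungs, mainly at 26 weeks. CD-1 mice had Nr4a3 at 5.63, 5.47, 4.98, 5.60 and 4.51, and every KO and TG mouse of 26 weeks was at 6.28 or above. Nr4a3 in CD-1 was 2.35-fold below KO (log2 difference -1.23, limma adjusted p = 0.00313, 5.04% of genes called) and 3.33-fold below TG (adjusted p = 2.9e-05, 4.42% called). Nr4a2 in CD-1 was 6.03, 5.81, 5.47, 5.25 and 5.49, against 6.67, 6.30, 6.63 and 6.71 in TG, 1.95-fold lower with no overlap (-0.97, adjusted p = 0.00522). In the comparison of CD-1 with TG at 26 weeks, 4 immediate-early genes of 24 and 3 glucocorticoid response genes of 9 were lower and none was higher.

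Averaged over the 4 weeks, Nr4a2 (-0.40, limma adjusted p = 0.00468) and Nr4a3 (-0.60, adjusted p = 0.00124) were lower in CD-1 than in TG lungs, where 27.6% of genes were called. The remaining call was Nr4a2 at 78 weeks in CD-1 against TG (-0.72, adjusted p = 0.045, 5.01% called), with overlapping groups, and it did not hold without any of the 5 CD-1 mice or without any of 3 of the 5 TG mice (-0.50, adjusted p = 0.335, without the TG mouse at 6.93). The other averages over weeks called no member: KO against WT (0.319% of genes called), TG against WT (0.503%), CD-1 against WT (17.4%), TG against KO (0.344%) and CD-1 against KO (23.6%). Nr4a3 averaged 0.43 higher in TG than in KO (adjusted p = 0.476). In all, 6 of 81 strain comparisons called a member, against 6.17% of all tests.

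Tumour notes in the labels mark 10 mice, all at 104 weeks, among them an air-exposed WT, an air-exposed KO and a styrene-exposed TG mouse. Of the CD-1 mice at 104 weeks, 7 of 17 carry the note, although whole lung and not tumour tissue was assayed. Nr4a1 averaged 8.27 ± 0.96 in the noted mice (SD, n = 7) and 7.86 ± 0.30 in the others (n = 10), and the means of Nr4a2 were 4.66 and 5.12 and those of Nr4a3 were 3.52 and 4.04. With dose in the model the log2 differences were 0.48, -0.37 and -0.41 (limma adjusted p = 0.613, 0.484 and 0.584). The noted mice include the air mouse with Nr4a1 at 10.11, and without it the 6 others averaged 7.96 ± 0.55, with a log2 difference of 0.08 (adjusted p = 0.927). No gene of 14569 was called in this comparison (0%), and 1382 had an unadjusted p below 0.05.

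From mouse to mouse within groups, Nr4a1 and Nr4a2 rose and fell together. Over the deviations of 150 arrays from their group means, r was 0.499 (permutation within groups, 2-sided, p = 1e-05, the smallest that 100000 resamples can give; adjusted over 3 pairs 3e-05), Spearman's rank correlation was 0.425 (p = 1e-05, adjusted 3e-05), and r was 0.505 without the 2 arrays farthest from the median. By plate the value was 0.664 on plate 1 (88 arrays), 0.775 on plate 2 (14), -0.0448 on plate 3 (22) and 0.129 on plate 4 (22). The relation thus did not hold within the plates of 104 weeks. In most groups of 26 or 52 weeks, the mouse with replicate number 1 had the highest Nr4a1. Its deviation was 1.44 in WT after 52 weeks of air and 0.89 in KO after 26 weeks of air. It was below its group mean in CD-1 after 52 weeks of styrene (-0.30). Nr4a2 was above the group mean in most of these mice too. The permutations treat mice of a group as interchangeable, so their p does not allow for this order. Its part in r was not tested. Nr4a2 and Nr4a3 gave r = 0.272 (permutation p = 0.00095, adjusted 0.00142) and a Spearman's rank correlation of 0.306 (p = 0.00049, adjusted 0.00074), with 0.294 without the 2 farthest arrays. The values by plate were 0.330, -0.112, 0.507 and 0.368, of the opposite sign on plate 2. Nr4a1 and Nr4a3 gave r = 0.113 (permutation p = 0.242) and a Spearman's rank correlation of 0.128 (p = 0.157), with 0.113 without the 2 farthest arrays and 0.230, -0.294, 0.131 and -0.0149 by plate.

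The genes whose deviations followed each member most closely differed between the members. For Nr4a1 they were Dusp1 (r = 0.736), a MAP kinase phosphatase, Fos (0.684), Egr1 (0.652), the antiproliferative gene Btg2 (0.646) and Ier2 (0.639), all immediate-early genes. For Nr4a2 they were Klf4 (0.558), a Kruppel-like factor, Adamts1 (0.519), a secreted metalloprotease, Nr4a1 (0.499), Dusp1 (0.498) and the arrestin-domain gene Arrdc3 (0.461). For Nr4a3, 4 of the 5 were Noct (0.501), a phosphatase of nicotinamide dinucleotides with daily rhythm in mouse tissues, Hspa1b (0.455), the zinc transporter Slc39a14 (0.450) and Maff (0.441). Each r is over 150 arrays that share plates and groups, and is given as a description.

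**Figure D4:**
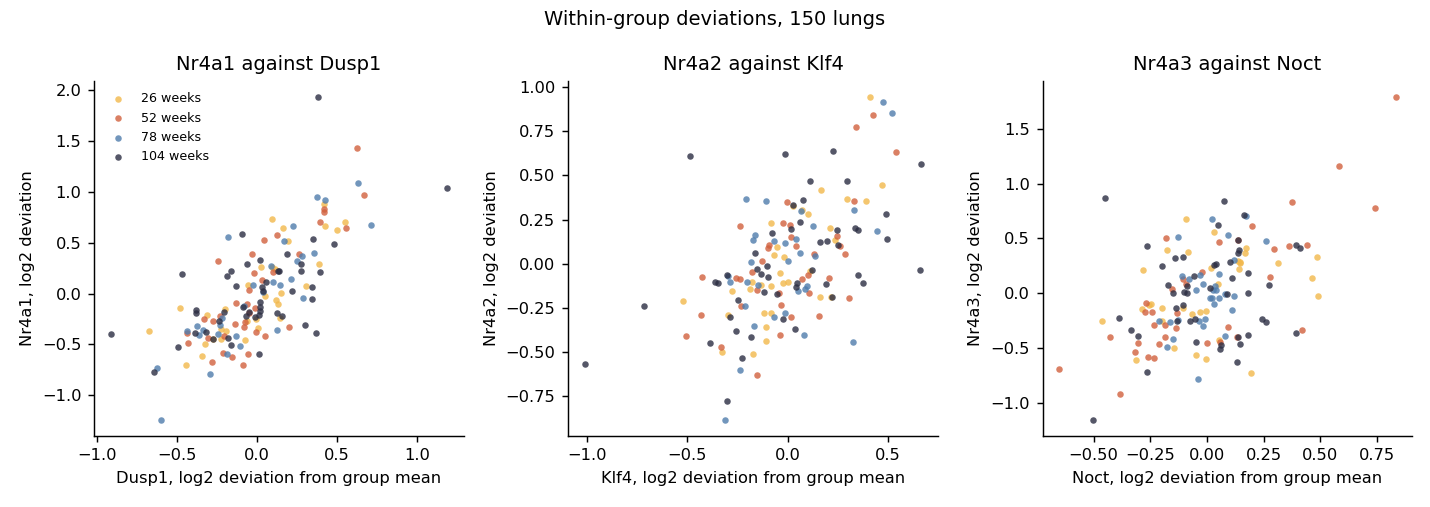
Deviation of each of 150 lungs from its group mean (log2) for Nr4a1 against Dusp1, Nr4a2 against Klf4 and Nr4a3 against Noct, coloured by week of exposure. The clouds slope upwards, with r = 0.736, 0.558 and 0.501.

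Over lists, the median r within groups of Nr4a1 was 0.331 with the immediate-early genes, 0.231 with endothelial genes and 0.233 with patrolling (Ly6C-low) monocyte genes, beside 0.0232 over all genes. Nr4a2 had a median of 0.192 with the immediate-early genes, 0.238 with ciliated cell genes and -0.245 with B cell genes, beside -0.0257 over all genes. Nr4a3 had 0.156 with the immediate-early genes, 0.395 with the heat shock genes and 0.217 with the glucocorticoid response genes, beside 0.0068 over all genes. Across the 31 group means, which share week, strain and plate, the nearest genes were Egr1 (r = 0.919) for Nr4a1, the cyclic AMP phosphodiesterase Pde4d (0.910) for Nr4a2 and the amino acid transporter Slc7a6 (0.923) and the neuropeptide Nts (0.923) for Nr4a3.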

How the data were processed

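The values are log2 intensities as the authors deposited them, 1 column for each of 150 arrays. RMA and Partek are named in the submitters' processing notes, with no version. The values lay between 1.735 and 14.0, and array medians between 3.95 and 4.26, so no further normalization was applied. The number of arrays limits the precision. The design text states 154 mice, of which 150 are analysed here, and the treatment protocol speaks of 1 or 4 weeks, which differs from the labels of each sample that were used.

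Of 45037 probe sets, 28898 were listed with 1 gene symbol, 551 with several and 15588 were not listed. RefSeq symbols were assigned through Entrez IDs for 28689 probe sets, whether or not the symbol changed. For each gene the probe set with the highest mean was kept, and a gene was tested if it was above the 30th percentile of the array in at least 3 arrays. Group means of the 31 groups and a term for plate 2 were fitted with limma 3.58.1 (lmFit and eBayes) in R 4.3.3, with Benjamini-Hochberg adjustment over 15695 genes at 0.05. The fit was tested on simulated data without plate effects or relations between genes, so that test covers neither. Summed levels of a list are log2 of summed intensities, and ± is the SE of a log2 difference or the SD of a group. Overlap of groups was not counted over all genes, so a lack of overlap is given as a description.

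The members and gene lists were chosen with earlier results of these data known. The named genes were the 3 members, the 5 genes closest to each within groups and up to 4 genes of each list with the smallest p. In some comparisons further called genes of a list are named. A gene among the 5 closest to Nr4a3 is not reported here. Both closest genes of Nr4a3 over group means are given because their r is equal to 3 digits. Alternatives were no plate term, other plate terms, other filters, the mean of probe sets, separate fits, left-out arrays and a replicate block. Promoter sequences are RefSeq's, GRCm38.p6. Replicate numbers name different mice: in 1 of 14 comparisons every pair of the same number had a correlation of deviations over 0.1, so they were not taken as pairs.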

Additional observations from a re-analysis of the deposited data

Results flagged for a closer look

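Of 81 sets of a member and a group of 4 to 10 mice, 6 had a mouse far from the others, and chance alone flags about 1 in 20 such sets. Nr4a1 was 8.13 in a KO mouse after 52 weeks of styrene, where the nearest of the others was 7.32. In CD-1 lungs after 104 weeks of air, a mouse had Nr4a1 at 10.11 and the nearest other was 7.99. Nr4a2 was 5.82 in a TG mouse after 104 weeks of air (nearest 5.43), 6.34 in a KO mouse after 26 weeks of styrene (nearest 5.87) and 6.57 in a KO mouse after 52 weeks of air (nearest 5.89). Nr4a3 was 4.35 in a WT mouse after 78 weeks of styrene (nearest 3.60), which was on plate 2 like 3 of the other 4.

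In 2 pairs of strains, all styrene mice of 1 strain were above its air mean and all styrene mice of the other were below theirs. Nr4a2 at 52 weeks was higher with styrene than with air by 0.25 in KO lungs, where all 5 styrene mice were above the air mean, and lower by 0.44 in CD-1 lungs (log2 difference -0.44), where all 3 styrene mice were below it. Nr4a3 at 78 weeks had all 3 TG styrene mice above the air mean (means 4.11 with styrene and 3.63 with air), while all 3 CD-1 styrene mice were below it (log2 difference -0.35). The fitted difference in TG was -0.0679, because the plate 2 term of 0.55 was taken from these mice. The difference between the strains was not tested in either case.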

How the results depend on the processing

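Of the counts of called members and the 3 relations between members, 113 values under an alternative kept their side of the threshold or stayed within 1.5 times, and 22 did not. Of single results 896 stayed the same, 40 passed the threshold in addition, 86 no longer passed and none reversed. The 4 calls of styrene against air by week became 0 with the mean of probe sets, 2 with C57BL/6 and CD-1 fitted separately, 1 with the leading axis of within-group variation as a covariate, 2 without tumour-labelled mice and 1 with a plate 4 term, added after seeing the data, with either placing of the 4 arrays of unsettled plate. The 3 calls at 104 weeks were lost with a plate 4 term, with the covariate and with the mean of probe sets. The 1 call averaged over weeks became 2 without a plate term, 2 without it and without the CD-1 air array on plate 2 (also added), and 0 in separate fits. The 6 calls between weeks of styrene became 16, 16 and 2 under the same 3 settings. The causes were not tested. Within plates, Nr4a1 and Nr4a2 gave r = -0.0448 on plate 3 and 0.129 on plate 4, and Nr4a2 and Nr4a3 gave -0.112, 0.507 and 0.368 on plates 2, 3 and 4. In further settings 1 replicate number was left out at a time in groups of at most 5 mice, or the CD-1 air array on plate 2 alone. Over these, calls ranged from 7 to 10 for weeks in air (11 with all mice) and 2 to 7 for weeks with styrene. They ranged from 3 to 7 between strains, 0 to 1 for averages and 3 to 5 by week. With the replicate number as a block the counts were 4 by week, 1 averaged, 10 for weeks in air, 7 for weeks with styrene and 6 between strains, and no count moved by over 1.5 times. Nr4a3 fell from 52 to 78 weeks of air in KO, TG and CD-1 under all alternatives run. Arrays were left out singly for 92 of 110 eligible mice, and terms for plates 2 and 4 with all 4 arrays of unsettled plate on plate 4 could not be fitted. Nr4a3 at 78 and 104 weeks lay near the filter level, which limits what its values can show there.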
